A study of Mus musculus with 4 samples.

Results

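The change of the mouse cardiac endothelial response to lipopolysaccharide (LPS) between 4 h and 24 h was measured as the response at 24 h minus the response at 4 h. It draws on all 4 of the 4 arrays and on the 11138 gene symbols they measured. Each array compared amplified RNA of cardiac endothelium from mice given LPS intraperitoneally with that of saline-injected mice on spotted Operon V1 long oligonucleotides, with 1 dye for each RNA. At 4 h and again at 24 h, LPS RNA carried Cy5 on the first array and Cy3 on the dye-reversed second array. Every sample was thus defined by LPS against saline at its time, and the sources used here do not give strain, age, sex, LPS dose or the number or pooling of animals. They also do not say how the endothelium was isolated or whether 1 saline RNA served both times. The labels name no separate animals for the reversed array, so the 2 arrays of a time were counted as 1 sample and the change between the times was described without a test. A fit that takes the arrays as separate samples was run as an alternative only.

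Values are log2 ratios of LPS over saline, each array set to a median of 0 over genes, with the sign of the dye-reversed arrays turned. The deposited table does not state its direction. LPS over saline is the likely direction, taken from the dyes in the labels with the table read as Cy5 over Cy3. Read as Cy3 over Cy5, every sign given here would turn. With the reversed arrays left unturned, as if the table had been turned already, 295 genes met the rule given next, none of them among the genes named below as changed. This lack of overlap was fixed in advance, since unturning reverses the difference between the times with LPS in Cy3 and the rule needs the same side in both dyes. In each sentence with 4 values, the array with LPS in Cy5 comes first within a time. A gene was said to rise or fall only if it met the strict rule, which asks that each array of 1 time be separated from each array of the other by 1 log2 unit (2-fold) or more, on the same side. A difference is given as 24 h minus 4 h ± the SD of the 2 differences within a dye orientation. This SD is not the spread between the arrays of a time, since a shift shared by both arrays of an orientation cancels in it. Eng, given below with ± 0.01, had an SD between its arrays of 0.84 at 4 h and 0.85 at 24 h. A small ± is thus no measure of precision, and the arrays were paired by dye orientation only. The table gave ratios and no intensities, which leaves spot strength unknown and gives no check that endothelial markers were present. A ratio can move through its LPS RNA or its saline RNA, and fewer cells of a type and less RNA per cell cannot be told apart.

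Gram-negative bacteria carry the glycolipid LPS on their surface, and mammalian cells detect it through Toll-like receptor 4 with its partners MD-2 and CD14. Signalling through MyD88 activates NF-kB and the transcription of chemokines, cytokines and adhesion molecules, while signalling through TRIF leads to type I interferon and the genes it induces. Endothelial cells of the heart present chemokines and selectins to leukocytes, set vascular tone and permeability, and pass fatty acids from blood lipoproteins to the heart muscle.

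The rule was met by 615 of 11138 genes (5.52%), of which 291 were higher at 24 h (2.61%) and 324 lower (2.91%). The median difference was 2.10 among the genes that rose, with a range of 1.15 to 5.77, and -2.00 among those that fell, with a range of -6.67 to -1.08. A difference of at least 3 log2 units was seen in 50 genes that rose and 43 that fell. Held to every single spot in place of the mean of spots, the rule was met by 228 genes (2.05%), 109 higher (0.979%) and 119 lower (1.07%). Genes that met it only on the mean of their spots are marked below as changed on spot averages only. The smallest distance between arrays of the 2 times inside the rule was 1.00025 and the largest outside it 0.999964. Within 0.1 of the limit lay 103 genes inside and 147 outside.

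The difference could be read separately from the arrays with LPS in Cy5 and from those with LPS in Cy3. Over all genes these 2 differences correlated weakly, with r = 0.17, a description across genes that share libraries. In 1788 genes both were at least 1 log2 unit in size, and 1191 of these (66.6%) had the same sign. Adjacent spots of an oligonucleotide correlated at 0.19 to 0.32 within an array. Among the 2041 genes whose adjacent spots agreed to 0.5 log2 units on all arrays, r was 0.57, and 288 of 299 genes with both differences of at least 1 (96.3%) had the same sign. The turning of the reversed arrays was chosen with these data in view, so these shares do not stand apart from it.

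**Figure D1:**
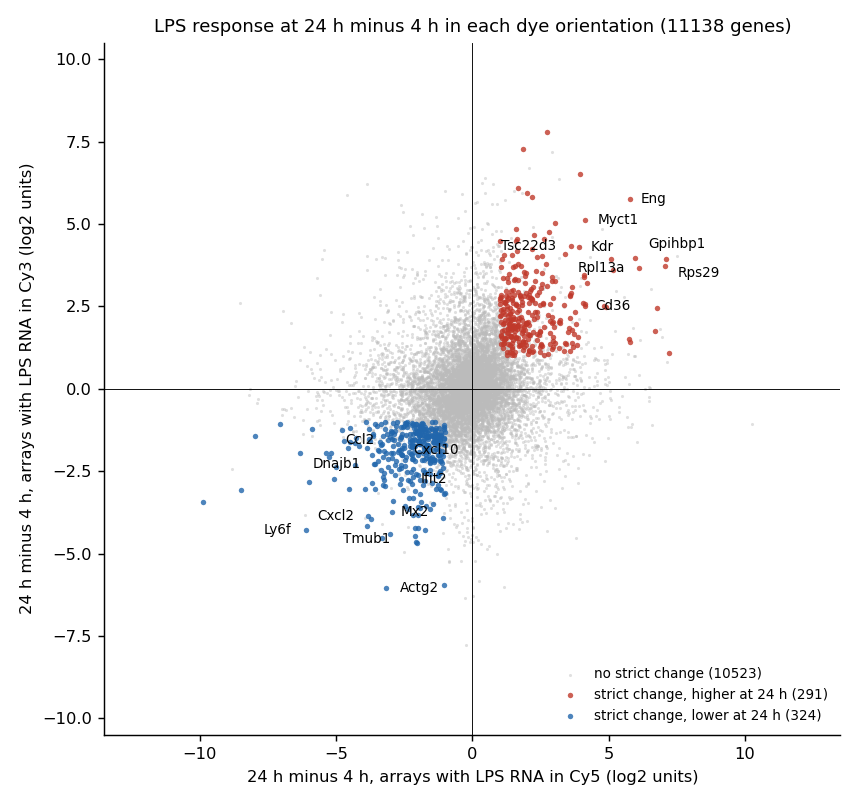
Each point is 1 of 11138 genes, with the difference 24 h minus 4 h (log2 units) on the arrays with LPS RNA in Cy5 on the horizontal axis and with LPS RNA in Cy3 on the vertical axis; coloured points are the 291 genes with strict change that were higher at 24 h and the 324 that were lower. Coloured genes lie in the corners where both differences have the same sign, with Eng at the upper right and Ly6f and Cxcl2 at the lower left.

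The genes were then placed by their response at each time, and a gene counted as responding at a time if its LPS RNA was 2-fold or more above saline, or below it, on each of the 2 arrays. A response was read on the mean of a gene's spots and was not asked of every spot. Such a response was seen in 362 genes at 4 h (3.25%) and in 780 at 24 h (7%). Of the 251 genes higher with LPS at 4 h, 81 fell by 24 h. Of the 111 lower with LPS at 4 h, 66 rose. Among the 291 genes that rose, 145 responded as higher at 24 h only, 51 as lower at 4 h only, 15 were on opposite sides at the 2 times, 1 stayed on the same side, and 79 met the 2-fold limit at neither time. Among the 324 that fell, 177 responded as lower at 24 h only, 65 as higher at 4 h only, 13 stayed on the same side of 1 at both times, 4 were on opposite sides, and 65 met the limit at neither time. A drop below saline at 24 h was thus the more frequent form of a fall, and the return of an early induction the less frequent form, in these counts. The counts take 1 limit on arrays of unequal spread.

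**Figure D2:**
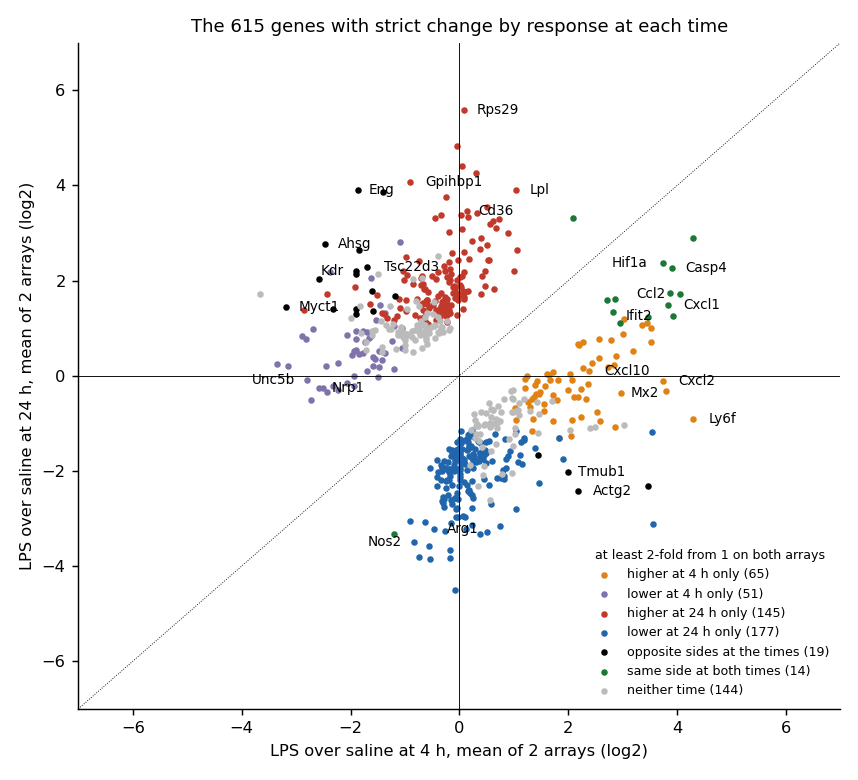
Each point is 1 of the 615 genes with strict change, with the mean log2 ratio of LPS over saline at 4 h on the horizontal axis and at 24 h on the vertical axis (2 arrays each, dotted line: equal values), coloured by the time at which both arrays were at least 2-fold from 1. The early induced genes that fell (65, orange) lie at the right, and the genes lower at 24 h only (177, blue) lie below 0 near the vertical axis.

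The gene lists used from here on were chosen with earlier results of these data known. Their shares beside those of all genes are descriptions and no support for a theme. Chemokines that draw neutrophils and T cells to inflamed vessels were among the genes that fell. In the list of CXC chemokines and their receptors, 4 of 19 measured members fell (21.1%, against 2.91% of all genes) and none rose, while the median difference of the list was 0.03, against -0.04 over all genes. Cxcl2, a ligand of the neutrophil receptor CXCR2, stood at 3.94 and 3.53 at 4 h and at 0.11 and -0.33 at 24 h, a difference of -3.84 ± 0.02. Its induction at 4 h was thus back to the level of saline at 24 h on both arrays. Cxcl1, which binds the same receptor, stood at 3.51 and 4.16 at 4 h and at 1.59 and 1.40 at 24 h, a difference of -2.34 ± 0.60. It fell but remained over 2-fold above saline. Cxcl11, a ligand of the T cell receptor CXCR3 that is induced by interferon, had values of 2.51 and 1.72 at 4 h and -0.18 and -0.72 at 24 h, a difference of -2.57 ± 0.18. Cxcl10, with the same receptor, had 2.34 and 2.40 at 4 h and -0.35 and 0.55 at 24 h, on spot averages only. The third ligand of CXCR3, Cxcl9, was singled out after its values were seen. It showed no strict change, at 1.92 and 2.79 at 4 h and 0.90 and 3.95 at 24 h, where the arrays of the 2 times overlapped. With the arrays scaled to the same spread, the list median was -0.50, and with quantile normalization -0.29, so its sign depends on the scaling.

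Of 33 CC, C and CX3C chemokines and receptors, 2 fell (6.06%, against 2.91% of all genes) and none rose, and the median difference was -0.11. Ccl2, which recruits monocytes, stood at 4.25 and 3.85 at 4 h and at 1.15 and 2.31 at 24 h, a difference of -2.32 ± 1.10. It was above saline at both times, with the later arrays both below the earlier. Ccr9, the receptor of the gut-homing chemokine Ccl25, fell from -0.36 and 0.26 to -2.84 and -2.07.

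The promoters of 4 genes that fell are shown as examples that hold a match to kB or interferon-type motifs, the textbook elements of the LPS response. Among genes higher with LPS at 4 h that fell, Cmpk2, Casp4, Rela, H2-Q7, Hspb1, Ly6f and Cldn5 held no match in the promoters listed for them. A match means the exact spelling given below, and other forms of these elements were not searched, so a promoter without a match may still hold one. Ifi203 was under 2-fold above saline on 1 of its 2 early arrays. The sequences are RefSeq's for build GRCm38.p6, from 250 bases before to 50 after the start, 5′ to 3′ on the gene's strand. Capitals mark matches on either strand to the kB motif GGANNTTCC, the interferon-stimulated half-site pair GAAANNGAA, the AP-1 motif TGANTCA or the STAT motif TTCNNNGAA. Cxcl1 (chr5:90890995-90891294, plus strand) and Cxcl2 (chr5:90903649-90903948, plus strand) both held the kB match GGAATTTCC, 70 and 96 bases before the start. Ifit2 (chr19:34550444-34550743, plus strand) held a kB match 246 bases and an overlapping STAT match 241 bases before the start, which the capitals join. Its other listed promoter held no match. Ifi203 (chr1:173942443-173942742, minus strand) held GAAATCGAA 35 bases and an AP-1 match 208 bases before the start.
Cxcl1: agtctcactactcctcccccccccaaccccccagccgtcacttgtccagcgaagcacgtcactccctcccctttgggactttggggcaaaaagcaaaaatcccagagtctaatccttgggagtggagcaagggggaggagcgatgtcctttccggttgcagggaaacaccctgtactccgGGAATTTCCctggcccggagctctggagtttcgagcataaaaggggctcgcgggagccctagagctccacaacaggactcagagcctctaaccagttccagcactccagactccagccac
Cxcl2: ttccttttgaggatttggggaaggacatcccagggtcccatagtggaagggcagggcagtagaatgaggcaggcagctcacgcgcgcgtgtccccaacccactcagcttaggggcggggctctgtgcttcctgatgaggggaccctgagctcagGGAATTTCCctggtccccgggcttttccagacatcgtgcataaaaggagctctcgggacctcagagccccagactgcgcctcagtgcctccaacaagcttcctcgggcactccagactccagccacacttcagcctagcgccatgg
Ifit2: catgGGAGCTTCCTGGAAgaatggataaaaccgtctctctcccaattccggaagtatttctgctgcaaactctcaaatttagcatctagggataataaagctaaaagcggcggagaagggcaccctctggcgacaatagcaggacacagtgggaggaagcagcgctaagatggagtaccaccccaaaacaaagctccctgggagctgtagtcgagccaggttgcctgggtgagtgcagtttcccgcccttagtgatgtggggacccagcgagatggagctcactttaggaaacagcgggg
Ifi203: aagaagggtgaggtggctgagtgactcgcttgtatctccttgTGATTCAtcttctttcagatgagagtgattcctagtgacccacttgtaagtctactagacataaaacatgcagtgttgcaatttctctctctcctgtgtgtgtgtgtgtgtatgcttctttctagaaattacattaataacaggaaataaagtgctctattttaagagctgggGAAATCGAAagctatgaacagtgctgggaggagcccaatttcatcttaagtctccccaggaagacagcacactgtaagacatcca

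The kB motif was in 4.26% of all 32851 promoters of the RefSeq table and in 4.71% of the 11173 promoters of genes on the arrays. It was in 10 of 135 promoters (7.41%) of genes that fell in every spot, and in 4 of 121 (3.31%) of those that rose in every spot. Among genes higher with LPS at 4 h that then fell, 8 of 71 promoters held it (11.3%). The interferon half-site pair was in 8.56% of all promoters and 7.43% of those of genes on the arrays. It was in 8.15% of those of genes that fell in every spot and 8.26% of those that rose. The AP-1 motif was in 7.81%, 6.84%, 7.41% and 2.48%, and the STAT motif in 8.3%, 7.12%, 7.41% and 3.31%, in the same order. These shares are descriptions of letters in a window, and several promoters can belong to 1 gene.

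Some genes induced by interferon fell, some kept their response at both times without strict change, and many did neither. Of 39 listed genes outside the GTPase families, 7 fell (17.9%, against 2.91% of all genes) and none rose. In both dye orientations, 25 of the 39 had a lower value at 24 h and 3 a higher one. Over all 11138 genes, 3400 were lower and 3049 higher in this way. The median difference was -0.73, and -1.20 with the arrays scaled to the same spread. Ifit2, an antiviral protein that binds viral RNA and translation factors, stood at 3.83 and 4.01 at 4 h and at 1.23 and 1.29 at 24 h, a difference of -2.67 ± 0.09. The 4 values lay far apart by time and close within it, and the later pair remained above saline. Cmpk2, a mitochondrial nucleotide kinase induced by interferon, went from 3.59 and 3.30 to 1.52 and 0.71. Ifi203, of the HIN-200 family of nuclear DNA-binding proteins, went from 1.18 and 0.96 to -0.23 and -1.19, from above to below saline on both arrays but under 2-fold on 1 array of each time. Irf2, a repressor of interferon-stimulated transcription, was at -0.06 and 0.11 at 4 h and at -2.01 and -1.43 at 24 h, near saline on both early arrays and below it on both late ones. The remaining 3 of the 7, Oasl2, Ifih1 and Usp18, met the rule on spot averages only, and were named after their values were seen. Stat2, a subunit of the transcription factor that type I interferon activates, kept its response, at 2.75 and 2.34 at 4 h and 2.16 and 2.02 at 24 h. Irf7, the factor that amplifies interferon production, was at 1.17 and 2.66 at 4 h and at 2.05 and 2.24 at 24 h.

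The interferon-induced GTPases, which attack the vacuoles of intracellular pathogens, had 2 of 12 members that fell (16.7%, against 2.91% of all genes) and none that rose. A further 4 held a 2-fold induction on every array without strict change. Their median difference was -0.62, and -1.83 with the arrays scaled to the same spread. Mx2, an antiviral GTPase, stood at 2.81 and 3.12 at 4 h and at -0.14 and -0.61 at 24 h, a difference of -3.34 ± 0.55, and was no longer above saline. Gbp2, a guanylate-binding protein, stood at 5.19 and 4.14 at 4 h and at 5.41 and 4.61 at 24 h, a difference of 0.35 ± 0.18. Its arrays of the 2 times overlapped, and each lay over 4 log2 units above saline. Ifi47, an immunity-related GTPase, was at 4.89 and 3.72 and then at 4.32 and 2.97. Gbp8 fell from 4.23 and 4.34 to 3.04 and 2.76 on spot averages only and was still induced at 24 h. The strict change of Gbp8 was lost with quantile normalization. Within this family 1 member thus returned to saline while others stayed induced, a contrast that was not tested.

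Of 36 measured genes of LPS sensing and the NF-kB pathway, 2 fell (5.56%, against 2.91% of all genes) and none rose. The median difference of the list was -0.16, and -0.49 with the arrays scaled to the same spread. Rela, the p65 subunit of NF-kB, was at 1.37 and 1.77 at 4 h and at -0.13 and -0.32 at 24 h, a difference of -1.79 ± 0.42. Tlr2, the receptor of bacterial lipopeptides, fell from 4.01 and 3.71 to 2.28 and 1.18 on spot averages only, and not with quantile normalization. Both arrays of Tlr2 at 24 h were still above saline. Tnip1, an inhibitor of NF-kB signalling, kept values of 3.05 and 2.33 at 4 h and 1.71 and 2.03 at 24 h. Lbp, the plasma protein that hands LPS to CD14, was at 1.71 and 1.57 and then at 2.56 and 1.27. Tlr4, the LPS receptor itself, was singled out after its values were seen, and was near saline on all arrays, at -0.40 and -0.06 at 4 h and at 0.31 and -0.06 at 24 h.

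No member of 2 related lists met the rule, which 5.52% of all genes met. At that share, few members would be expected in lists of this size. Among 42 cytokines and cytokine receptors, none rose or fell, and the median difference was -0.46. The interleukin Il6, singled out after its values were seen, had 0.27 and 3.59 at 4 h and 0.01 and 1.52 at 24 h, so that the arrays of each time disagreed. Osmr, the receptor of oncostatin M, held its response at 1.65 and 2.40 and then 1.63 and 1.31. Among 18 endothelial adhesion and leukocyte traffic genes, none rose or fell either, and the median difference was -0.12, or -0.38 with the arrays scaled to the same spread. Sele, the endothelial selectin that LPS induces, was at 1.36 and 1.51 at 4 h and at 0.79 and 0.37 at 24 h, and Vcam1, the ligand of the integrin VLA-4, at 0.80 and 1.98 and then 1.63 and 1.04. These 2 were also singled out after their values were seen, and neither is shown by this to be equal at the 2 times.

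Of 22 measured genes of MHC class I, whose products present peptides to CD8 T cells, and of antigen presentation, 3 fell (13.6%, against 2.91% of all genes) and none rose. The median difference was -0.18. H2-Q7 stood at 3.31 and 2.71 at 4 h and at 0.42 and 1.33 at 24 h, and H2-Q10 at 2.01 and 0.90 and then -1.12 and -0.48. H2-K1 went from 3.12 and 2.47 to 0.51 and 1.00 on spot averages only. H2-D1 was at 3.31 and 2.24 and then at 2.01 and 1.03, lower in both dye orientations without strict change. Class I genes are near-identical in sequence, so that these oligonucleotides may not separate them, which was not tested.

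Among acute-phase, metal-binding and antimicrobial genes, 1 of 21 members fell (4.76%, against 2.91% of all genes), none rose, and 3 kept a 2-fold response on every array. Lcn2, lipocalin-2, which binds bacterial siderophores, stood at 5.09 and 3.82 at 4 h and at 5.41 and 4.93 at 24 h, a difference of 0.71 ± 0.56. Mt2, a metallothionein, was at 5.73 and 2.68 and then at 3.60 and 3.73. Both were strongly induced at both times, and their arrays overlapped between the times. Ltf, lactoferrin, an iron-binding protein of neutrophil granules, fell from 0.39 and 0.51 to -1.14 and -0.92. Over all genes, 43 responded on the same side at both times with no strict change, and 41 of these were higher with LPS. Of the 43, 19 had a smaller mean response at 24 h.

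**Figure D3:**
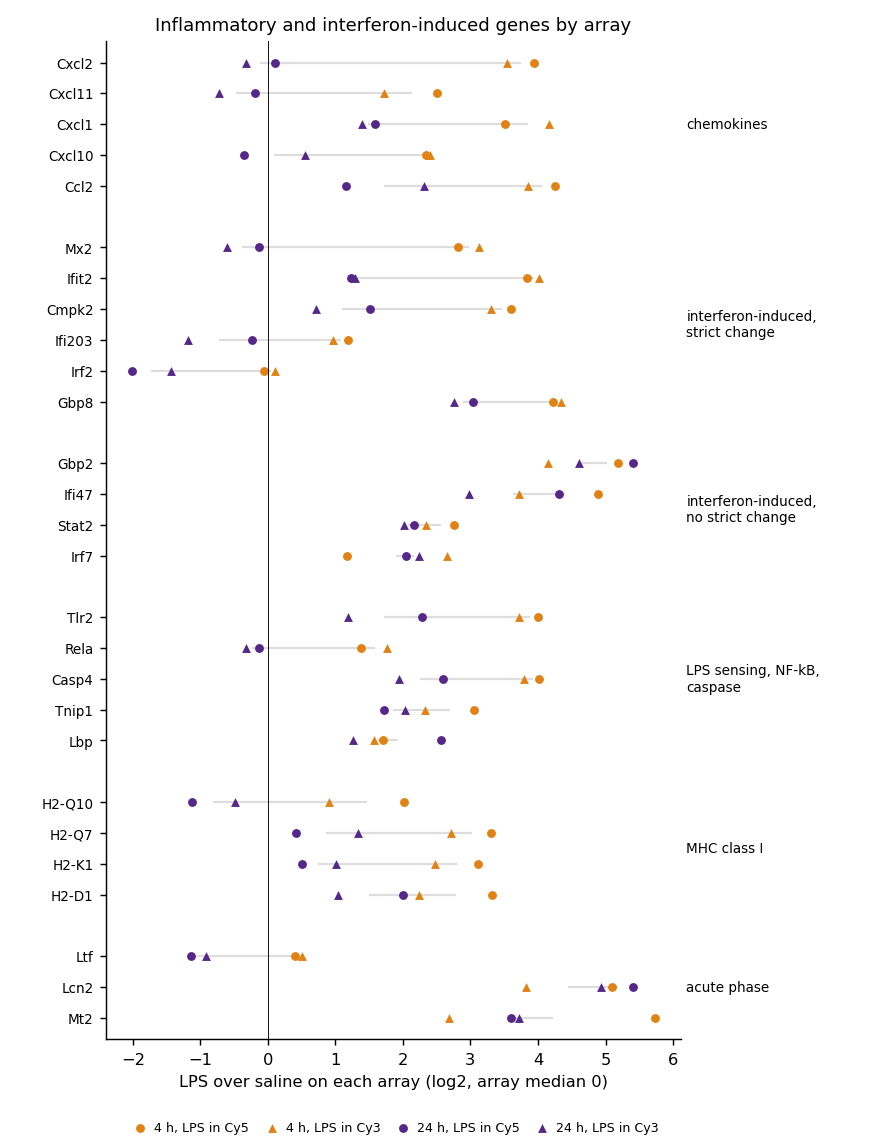
Log2 ratio of LPS over saline (horizontal axis) on each of the 4 arrays for chemokines, interferon-induced genes, LPS sensing genes, MHC class I genes and acute-phase genes, with orange for 4 h and purple for 24 h, circles for LPS in Cy5, triangles for LPS in Cy3, and a grey line between the means of the times. Cxcl2 and Mx2 move from above 2.8 to near or below 0, whereas the points of Gbp2 and Lcn2 overlap between the times.

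Among genes that define endothelial cells, 7 of 32 measured members rose (21.9%), 6 of them in every spot, and 1 fell, against 2.61% and 2.91% over all genes. The median difference of the list was 0.17, and 15 members had a higher and 5 a lower value at 24 h in both dye orientations. Of all 11138 genes, 3049 were higher and 3400 lower in both. Eng, endoglin, a co-receptor of TGF-beta and BMP9 on endothelium, stood at -1.27 and -2.46 at 4 h and at 4.51 and 3.31 at 24 h, a difference of 5.77 ± 0.01. It had the highest difference of all genes with strict change, and lay below saline on both early arrays and above it on both late ones. Kdr, the main VEGF receptor, stood at -1.36 and -2.42 and then at 2.55 and 1.87, a difference of 4.10 ± 0.27. Myct1, an endothelial membrane protein, stood at -2.59 and -3.79 and then at 1.54 and 1.34, a difference of 4.63 ± 0.71. Calcrl, the receptor of adrenomedullin and CGRP, went from -2.03 and -1.78 to 1.53 and 1.06. All 4 changed sides of saline with at least a 2-fold response at each time. Klf4, a transcription factor that dampens endothelial inflammation, went from -0.96 and -2.33 to 1.96 and 1.06. Cav1 and Cav2, subunits of caveolae named after their values were seen, rose by 1.78 ± 0.19 and, on spot averages only, by 2.42 ± 1.52.

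Cldn5, the main claudin of endothelial tight junctions, went the other way. It stood at 1.22 and 1.36 at 4 h and at -0.06 and -1.27 at 24 h, a difference of -1.96 ± 0.96. Junction and lineage genes did not move as a block. Singled out after their values were seen, Cdh5, VE-cadherin, was at -0.18 and 0.20 at 4 h and at -0.35 and -0.49 at 24 h, and Pecam1 was at 0.11 and -0.09 and then at -0.62 and 0.61. Nos3, the endothelial nitric oxide synthase, was at 0.05 and -0.10 and then at 0.40 and 0.25. These 3 stayed within 1 log2 unit of saline on all arrays.

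Of 42 measured angiogenesis, Notch and guidance genes, 2 rose (4.76%) and 1 fell (2.38%), shares near those of all genes, with a median difference of -0.01. Nrp1, a co-receptor of VEGF and semaphorins, stood at -2.19 and -2.97 at 4 h and at 0.11 and -0.62 at 24 h, a difference of 2.32 ± 0.03, and so returned from below saline towards it. Unc5b, a netrin receptor of vessels, went from -2.95 and -2.63 to 0.78 and -0.96 on spot averages only. Its strict change was lost when ratios of exactly 1 were left out. Hif1a, the oxygen-regulated transcription factor, was at 3.73 and 3.76 at 4 h and at 2.44 and 2.30 at 24 h, on spot averages only and not with quantile normalization, with a response that was smaller but still above saline. Id3, an inhibitor of basic helix-loop-helix factors, held at 1.17 and 1.74 and then 2.26 and 1.23.

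In the list of capillary lipolysis and fatty acid use, 8 of 36 members rose (22.2%, against 2.61% of all genes), 5 of them in every spot, none fell, and the median difference was 0.26. Gpihbp1, which anchors lipoprotein lipase on capillary endothelium, stood at -1.75 and -0.06 at 4 h and at 4.21 and 3.91 at 24 h, a difference of 4.97 ± 1.41. Lpl, lipoprotein lipase itself, stood at 1.45 and 0.63 and then at 5.02 and 2.79, a difference of 2.87 ± 1.00. Cd36, the fatty acid transporter, stood at 0.15 and 0.13 and then at 4.28 and 2.65, a difference of 3.32 ± 1.14. The late arrays of all 3 were above every early array and over 2 log2 units above saline. Fabp5, a fatty acid binding protein of capillary endothelium, went from -0.85 and -1.91 to 1.59 and 1.02. The other 4 were Plin2, a coat protein of lipid droplets, which rose by 2.60 ± 0.01, and Acsl4, Cpt2 and Pdk4, which met the rule on spot averages only and, like Plin2, were named after their values were seen. Lpl lost its strict change with the arrays scaled to the same spread, and its difference was 1.75 without the 24 h array with LPS in Cy5. Lpl is also made by cardiomyocytes. Of 30 cardiomyocyte markers, none rose and 1 fell (3.33%, against 2.91% of all genes). This was the calcium release channel Ryr2, from -0.05 and -0.04 to -1.32 and -1.47. It fell on spot averages only, and neither with scaling nor with quantile normalization. The list medians of these markers were -0.21 and -0.12 at 4 h and -0.11 and 0.20 at 24 h.

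Among vasoactive mediators, 2 of 27 members rose (7.41%, against 2.61% of all genes) and 4 fell (14.8%, against 2.91%). The median difference was -0.10. Arg1, arginase, which competes with nitric oxide synthases for arginine, stood at -1.05 and 0.12 at 4 h and at -3.23 and -3.20 at 24 h, a difference of -2.75 ± 0.81, and lay below saline at the later time. Nos2, the inducible nitric oxide synthase, went from -1.29 and -0.37 to -4.55 and -2.44 on spot averages only, and its difference was -1.61 without the 24 h array with LPS in Cy5. Nos1, the neuronal form, went from 0.33 and -0.28 to -1.76 and -1.83, also on spot averages only. Both nitric oxide synthases lost their strict change with scaling, and Nos1 also with quantile normalization. Gch1, the rate-limiting enzyme of tetrahydrobiopterin synthesis, fell from 1.77 and 2.64 to 0.63 and 0.64, on spot averages only. Besides Calcrl, the prostacyclin receptor Ptgir rose, from -1.02 and -1.10 to 1.07 and 0.09, on spot averages only.

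Regulators of transcription and stress signalling had 3 of 43 members that rose (6.98%, against 2.61% of all genes) and 1 that fell (2.33%, against 2.91%). Tsc22d3, the glucocorticoid-induced leucine zipper that restrains NF-kB, stood at -1.29 and -2.09 at 4 h and at 2.32 and 2.25 at 24 h, a difference of 3.97 ± 0.52. Sgk1, a kinase also induced by glucocorticoids, rose from 1.14 and -0.34 to 3.60 and 2.19 on spot averages only, and lost its strict change with scaling and with quantile normalization. Klf4, given above, was the third. Cebpd, an acute-phase transcription factor, went the other way, from 3.56 and 3.46 to 0.19 and 1.83, a difference of -2.50 ± 1.23. Ier3 and Cdkn1a, stress-response genes, held a 2-fold induction at both times, with Ier3 at 2.11 and 1.40 and then at 5.35 and 1.83. For Cdkn1a this held on the average of 2 oligonucleotides only. Its single spots ran from -0.61 to 2.90 at 4 h and from -0.34 to 5.32 at 24 h.

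**Figure D4:**
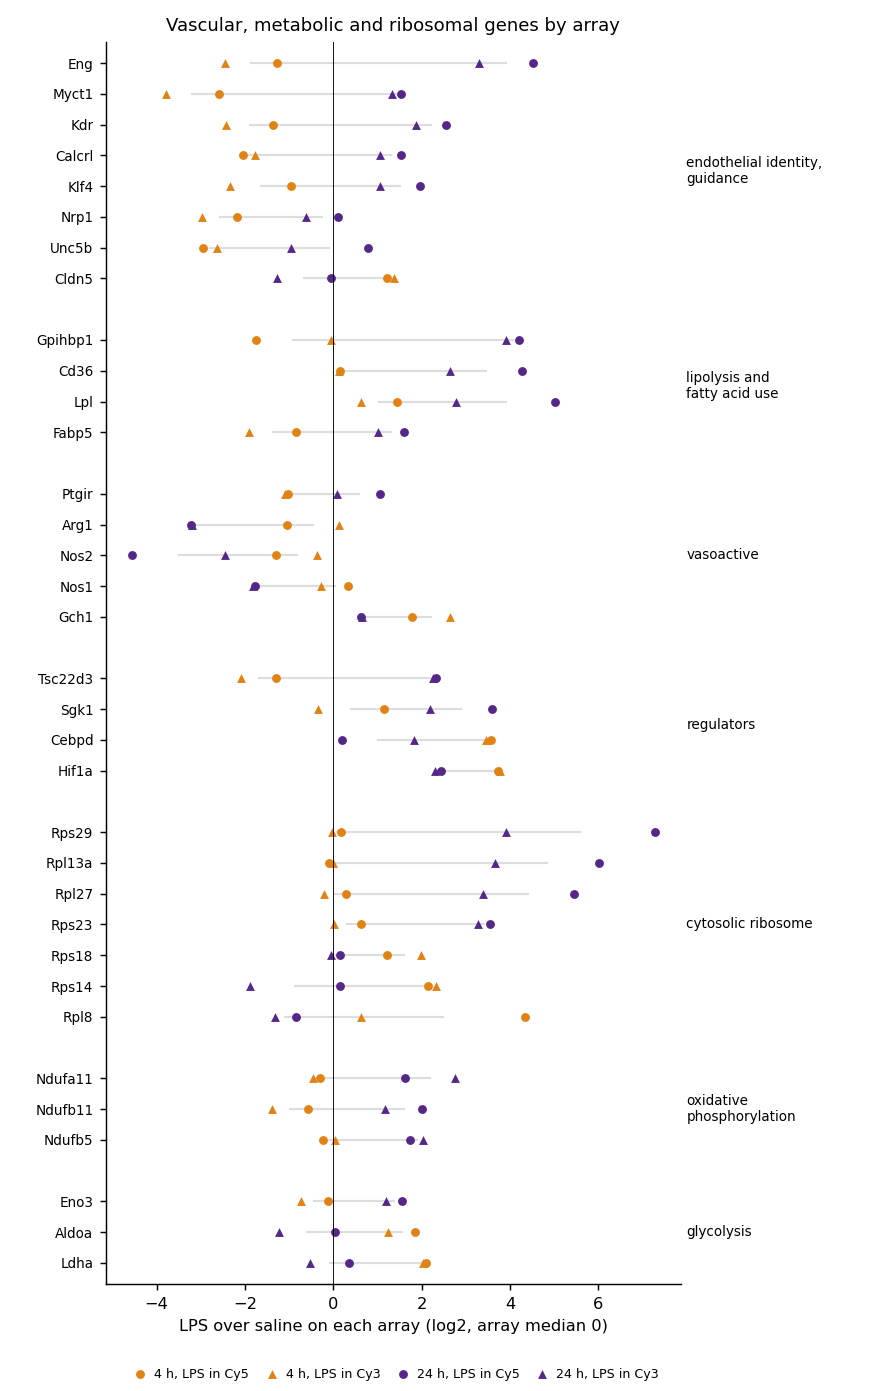
Log2 ratio of LPS over saline (horizontal axis) on each of the 4 arrays for endothelial, lipid, vasoactive, regulatory, ribosomal and energy metabolism genes, with orange for 4 h and purple for 24 h, circles for LPS in Cy5, triangles for LPS in Cy3, and a grey line between the means of the times. Eng, Myct1, Kdr and Calcrl lie below 0 at 4 h and above it at 24 h, and Rps29 lies near 0 at 4 h and at 7.27 and 3.92 at 24 h.

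Cytosolic ribosomal proteins moved in both directions. Of 65 measured, 10 rose (15.4%, against 2.61% of all genes), 7 of them in every spot, and 3 fell (4.62%, against 2.91%), 1 in every spot. Rps29, of the small subunit, stood at 0.18 and -0.03 at 4 h and at 7.27 and 3.92 at 24 h, a difference of 5.52 ± 2.23. Rpl13a, of the large subunit, stood at -0.10 and 0.00 and then at 6.01 and 3.65, Rpl27 at 0.30 and -0.21 and then at 5.45 and 3.39, and Rps23 at 0.62 and 0.01 and then at 3.56 and 3.28. These 4 had ratios near saline at 4 h and were higher at 24 h on both arrays, the Cy5 array in each case the higher. The 0.00 of Rpl13a came from spots with a ratio of exactly 1. Whether such ratios were measured or filled in is not known, and Rpl13a could not be followed without them. Rpl8 fell from 4.33 and 0.63 to -0.85 and -1.32, and its difference was -1.72 without the 4 h array with LPS in Cy5. Rps14 and Rps18 fell from 2.14 and 2.33 to 0.14 and -1.88, and from 1.22 and 1.98 to 0.15 and -0.05, on spot averages only. The median difference of the list was 0.16, and -0.28 with the arrays scaled to the same spread, so no direction is given for the family. Rpl10 and Rps7 were at least 2-fold above saline at both times with no strict change. Many ribosomal protein genes have near-identical pseudogenes, and cross-hybridization was not tested.

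Energy metabolism showed smaller counts. Of 64 oxidative phosphorylation genes, 6 rose (9.38%, against 2.61% of all genes) and 1 fell (1.56%, against 2.91%). The median difference was 0.19, and 29 members had a higher value at 24 h in both dye orientations against 12 with a lower one. Of all 11138 genes, 3049 were higher and 3400 lower in both. Ndufb11, Ndufa11 and Ndufb5, accessory subunits of complex I, rose in every spot. Ndufb11 went from -0.58 and -1.38 to 2.00 and 1.18, a difference of 2.57 ± 0.01. Ndufb5 went from -0.23 and 0.04 to 1.75 and 2.03, and Ndufa11 from -0.31 and -0.46 to 1.63 and 2.75. The arrays of these subunits were near or below saline at 4 h and above it at 24 h. Ndufa2 rose by 1.72 ± 0.11, and the core subunit Ndufv2 fell by 1.88, with an SD of 1.02, both on spot averages only and neither with scaling nor with quantile normalization. Without the 4 h array with LPS in Cy5, the difference of Ndufv2 was -1.24.

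Glycolytic genes had 1 of 22 members that rose (4.55%, against 2.61% of all genes) and 2 that fell (9.09%, against 2.91%). Ldha, lactate dehydrogenase A, stood at 2.09 and 2.03 at 4 h and at 0.36 and -0.52 at 24 h, and Aldoa, aldolase A, at 1.86 and 1.24 and then at 0.04 and -1.23. Both were above saline early and not late. Eno3, the muscle enolase, rose from -0.13 and -0.74 to 1.56 and 1.19. The median difference of the list was -0.21.

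In protein synthesis, folding and breakdown, strict change was met by 5.97% of mitochondrial ribosomal proteins, 3.23% of translation factors, 10.53% of proteasome genes and 11.9% of heat shock proteins and chaperones, against 5.52% of all genes. Mitochondrial ribosomal proteins had 3 of 67 that rose and 1 that fell, none in every spot. Translation factors had 1 of 31 that rose, the initiation factor subunit Eif3f, from 0.29 and 0.04 to 1.69 and 1.87, which lost its call with scaling. Eif2b2 and Eif3c held a 2-fold induction at both times. Among 38 proteasome genes, 3 rose and 1 fell, led by Psmd8, a subunit of the regulatory particle, from -0.25 and 0.31 to 3.83 and 2.92. Heat shock proteins and chaperones had 2 of 42 that rose and 3 that fell. Dnajb1, a co-chaperone of Hsp70, fell from -0.45 and 0.15 to -4.07 and -2.14, and the small heat shock protein Hspb1 from 1.88 and 1.54 to -0.11 and 0.25. Hspa5, the Hsp70 of the endoplasmic reticulum, rose from -0.28 and 0.16 to 2.21 and 1.28 on spot averages only, and neither with scaling nor with quantile normalization. Dnajb1 and Hspb1 thus moved in the opposite direction to Hspa5, and this difference was not tested. In the list, 37 of 42 members showed no strict change and the median difference was -0.10, so no direction is given for cytosolic or endoplasmic reticulum chaperones.

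Of 30 genes of apoptosis and the inflammasome, 2 rose (6.67%, against 2.61% of all genes) and 1 fell (3.33%, against 2.91%). Casp4, the caspase that binds intracellular LPS, stood at 4.02 and 3.80 at 4 h and at 2.60 and 1.94 at 24 h, a difference of -1.64 ± 0.31, lower but still above saline. Its strict change was lost with quantile normalization. Pycard, the adaptor of inflammasomes, rose from -4.69 and -1.61 to -0.55 and 0.95 on spot averages only, and its difference was 1.82 without the 4 h array with LPS in Cy5. Bad, a pro-apoptotic member of the BCL2 family, rose from -0.66 and -0.64 to 1.23 and 1.24, a difference of 1.88 ± 0.01. Cycs, cytochrome c, held a 2-fold induction at both times.

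In extracellular matrix genes, 3 of 50 rose (6%, against 2.61% of all genes) and 3 fell (6%, against 2.91%). Timp3, an inhibitor of metalloproteinases, rose from 0.37 and 1.07 to 4.21 and 2.38, though not with scaling or quantile normalization, and by 1.66 without the 24 h array with LPS in Cy5. Cst3, cystatin C, an inhibitor of cathepsins, rose from -2.13 and -1.67 to 0.85 and 0.21. The cathepsin Ctsl rose from 2.18 and 1.99 to 3.30 and 3.34 on spot averages only, but its difference was -0.06 with scaling and its strict change was lost with quantile normalization. The vascular laminin chains Lama4 and Lama5 and the matrix protein Sparcl1 fell on spot averages only, by 1.28, 1.65 and 1.67 on the log2 scale. Anxa2, a plasminogen receptor of endothelium, was the only 1 of 22 coagulation and fibrinolysis genes with strict change (4.55%, against 5.52% of all genes), from 0.48 and 0.52 to 3.10 and 2.40. Among 38 antioxidant enzymes 1 fell (2.63%, against 2.91% of all genes), the glutathione transferase Gstm2, from 0.04 and -0.21 to -2.06 and -1.51, though not with scaling.

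Cell cycle genes had 3 of 44 members that rose (6.82%, against 2.61% of all genes) and 1 that fell (2.27%, against 2.91%). Mcm4, a subunit of the replicative helicase, rose from -0.50 and -0.63 to 0.65 and 1.14 in every spot. Kif11, a mitotic kinesin, and Cdc25a, a phosphatase of cyclin-dependent kinases, rose by 2.17 ± 0.94 and 1.33 ± 0.03, and the histone chaperone Asf1b fell from 5.56 and 1.36 to -2.92 and -1.70, all 3 on spot averages only. Without the 4 h array with LPS in Cy5, the difference of Asf1b was -3.67.

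**Figure D5:**
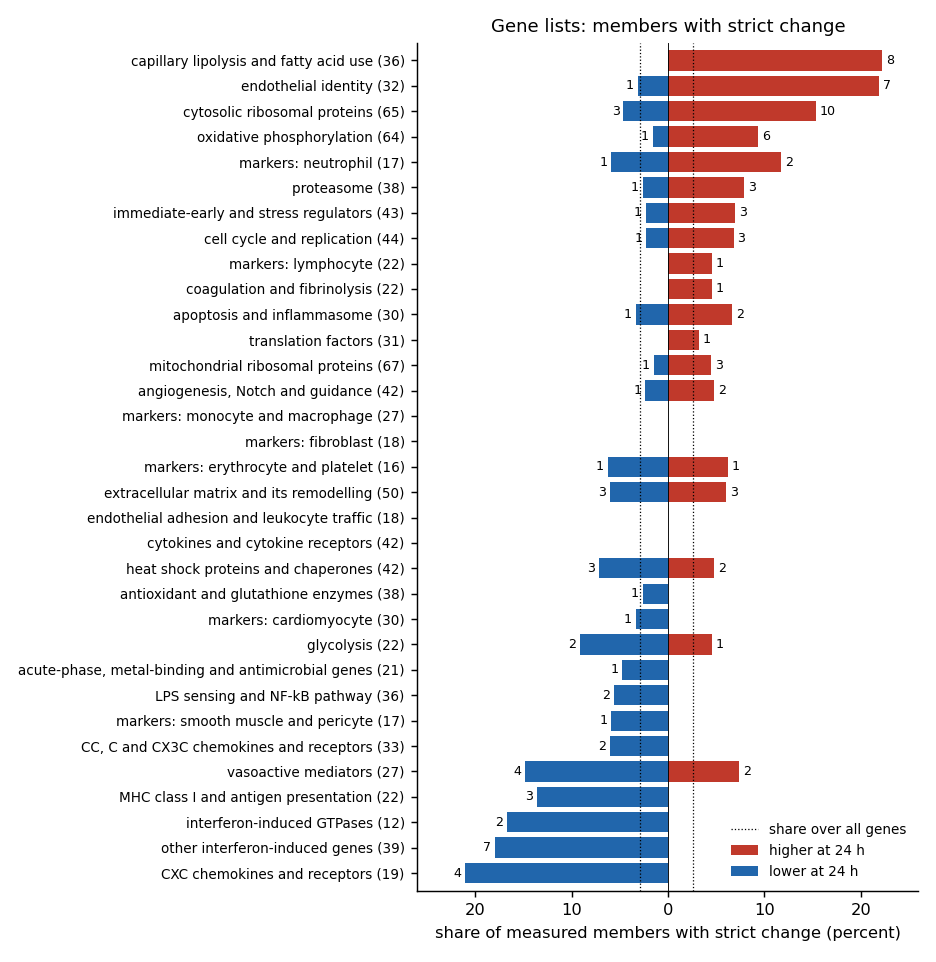
Share of measured members (percent, horizontal axis) that rose (red, to the right) or fell (blue, to the left) between 4 h and 24 h in each of 33 gene lists, with the number measured in parentheses, the number changed beside each bar, and the shares over all genes (2.61% and 2.91%) as dotted lines. The lipolysis (8 of 36) and endothelial identity (7 of 32) lists have the longest bars for genes that rose, and the CXC chemokine (4 of 19) list for genes that fell. The lists were chosen with earlier results of these data known, so the order of the bars is a description only.

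Markers of other cells that an endothelial isolate of the heart could hold were counted in the same way. Of 17 neutrophil markers, 2 rose (11.8%, against 2.61% of all genes) and 1 fell (5.88%, against 2.91%). S100a8 and S100a9, the subunits of calprotectin, rose from -0.24 and -0.02 to 3.41 and 1.76, and from -0.61 and -0.04 to 1.49 and 1.60. Ltf, a granule protein of the same cells, fell, and the list medians were -0.26 and -0.02 at 4 h and -0.32 and 0.06 at 24 h. The neutrophil markers therefore did not move in 1 direction. None of 27 monocyte and macrophage markers or of 18 fibroblast markers met the rule. Among 22 lymphocyte markers the B cell kinase Blk rose, and among 16 erythrocyte and platelet markers the erythroid factor Klf1 rose and the carbonic anhydrase Car1 fell, Blk and Klf1 on spot averages only. The spots of Car1 on the 4 h array with LPS in Cy3 had a ratio of exactly 1, measured or filled in. The changed share was 4.55% of the lymphocyte and 12.5% of the erythrocyte and platelet markers, against 5.52% of all genes. Of 17 smooth muscle and pericyte markers, none rose and 1 fell (5.88%, against 2.91% of all genes). This was the smooth muscle actin Actg2, from 1.77 and 2.59 to -1.38 and -3.45. The part of other cells in the changes described above was not tested.

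Outside the lists, the genes with the largest strict changes in every spot had mixed functions. Ly6f, of the Ly6 family of membrane-anchored proteins, fell from 4.67 and 3.91 to -1.44 and -0.39, a difference of -5.21 ± 1.29. Mtmr3, a phosphoinositide phosphatase, fell from 3.09 and 2.61 to -0.24 and -1.90. These were early inductions that were gone at 24 h. Tmub1, a ubiquitin-like membrane protein, changed sides, from 1.88 and 2.10 to -1.98 and -2.05. Nfatc2, a calcineurin-dependent transcription factor, fell from -0.34 and 0.00 to -4.27 and -3.05, and Nodal, a TGF-beta family ligand, from -0.36 and 0.00 to -5.61 and -2.07. Both were near saline at 4 h and below it at 24 h, and the difference of Nodal was -1.89 without the 24 h array with LPS in Cy5. The 0.00 of Nfatc2 came from spots with a ratio of exactly 1, which may have been measured or filled in. Flacc1, Ighmbp2, Ttc7 and Reg4 also fell, by 4.42, 3.80, 3.35 and 3.32 on the log2 scale, and all 4 were below saline at 24 h only. The difference of Flacc1 was -2.55 without the 24 h array with LPS in Cy5. The lowest difference of all, -6.67 ± 4.56 for the transcript 1700128F08Rik, rested on 6.62 on 1 early array against 0.50 on the other, and was -3.61 without the former. Tas2r119, a bitter taste receptor, had the same form, at 4.03 and -0.21 and then at -1.33 and -2.17, with a difference of -1.54 without the 4 h array with LPS in Cy5, and lost its strict change with scaling and with quantile normalization.

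Among the genes that rose outside the lists, Ahsg, fetuin-A, stood at -1.77 and -3.16 at 4 h and at 2.16 and 3.36 at 24 h, a difference of 5.23 ± 1.82. H2az2, a histone variant, stood at -1.77 and -1.93 and then at 3.30 and 2.00, and N4bp3 at -1.72 and -2.08 and then at 1.31 and 2.94. All 3 lay on opposite sides of saline at the 2 times. Fbxo9, an F-box protein of ubiquitin ligases, did so too, at -1.25 and -1.56 and then 1.502 and 6.23, with a difference of 2.91 without the 24 h array with LPS in Cy3. Adgre5, the leukocyte adhesion receptor CD97, rose from -0.72 and -3.13 to 2.08 and 1.63. Acyp2, an acylphosphatase, rose from 0.40 and 0.20 to 2.39 and 6.14, and Flna, filamin A, which crosslinks actin, from -5.12 and -0.58 to 1.58 and 1.17. The arrays of 1 time disagreed by more than 3 log2 units in Acyp2 and in Flna, whose differences were 2.09 without the 24 h array with LPS in Cy3 and 1.96 without the 4 h array with LPS in Cy5.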

How the data were processed

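The deposited table of the authors holds log2 ratios of 32448 spots on each of 4 arrays, per the labels 2 with LPS in Cy5 and 2 dye reversals. The sources used here do not give background correction, dye normalization, filters or ratio direction. Between 10.2% and 13.4% of spots per array had a ratio of exactly 1, within 1e-06. Of the spots, 24344 had 1 gene symbol in the platform annotation. Reversed arrays were turned, adjacent spots and then oligonucleotides averaged per symbol, and each array centred on its median. Arrays of 1 time on both sides of the other time met the distance in 272 genes and were not counted. limma 3.58.1 in R 4.3.3 served the alternative fits, tested on simulated data. Alternatives were scaling, quantile normalization, no centring, spot rules, distances, each array left out, and unturned signs. With 1 sample per time the number of arrays limits the precision.

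Members, 33 gene lists and named genes were chosen with earlier results of these data known. By rule, names were the 15 largest and 15 smallest differences strict in every spot, up to 4 strict members per list and direction, up to 8 genes on opposite sides at the times, changed cell markers, and up to 2 kept genes per list. Promoters are RefSeq's, build GRCm38.p6, and 8849 genes matched one by symbol.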

Additional observations from a re-analysis of the deposited data

Results flagged for a closer look

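In 12 named genes both arrays of 4 h and both arrays of 24 h lay at least 2-fold from 1, on opposite sides at the 2 times. The difference between the times was not tested in any of them, since each time is 1 sample. Of these, 9 moved from below to above saline. The differences, 24 h minus 4 h in log2 units, were 5.77 for Eng, 5.27 for Fbxo9, 5.23 for Ahsg, 4.63 for Myct1, 4.50 for H2az2, 4.10 for Kdr, 4.03 for N4bp3, 3.97 for Tsc22d3 and 3.20 for Calcrl. From above to below saline moved Asf1b, with -5.77, Actg2, with -4.60, and Tmub1, with -4.00. All but Asf1b kept the strict change in every single spot. Over all genes, 19 lay on opposite sides in this way.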

How the results depend on the processing

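The count of 615 changed genes was 607 with no centring, 567 with scaled and 572 with quantile-normalized arrays, 593 with single-oligonucleotide genes and 632 without ratios of exactly 1. Of the 615, 578, 456 and 489 stayed changed under the first 3. Without ratios of exactly 1, 580 of the 615 could still be measured, and 565 of these stayed changed. The share of higher genes was 47.3%, between 46.7% and 53.3% under these 5. The count was 228 with the rule in every spot, 300 with adjacent spots within 1 log2 unit (4570 genes), 240 at a distance of 1.5, 2201 with means 1 apart and arrays separate, and 1191 with both dye orientations past 1. Without each array in turn it was 1529 to 2572, since 3 arrays have fewer distances to meet, and the higher share was 39.2% (without the 24 h array with LPS in Cy3) to 53.0%. limma with arrays as separate samples, with and without dye as a block, gave 0 genes at an adjusted p under 0.05. Unadjusted, 813 and 638 genes were under 0.05, where evenly spread p-values give 557. The labels give no replicate numbers, so that block and the count of 1191 pair the arrays by dye orientation only. Under scaling 17 named genes lost the call and Ctsl changed sign, and under quantile normalization 15 lost it. Quantile normalization gave list medians of 0.28 for endothelial identity, 0.42 for capillary lipolysis and -0.05 for CC chemokines.

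With reversed arrays left unturned the count was 295, and 14 in every spot, the latter an alternative chosen after seeing the data. Neither count could hold any of the 615, since unturning reverses the difference with LPS in Cy3. An unturned difference sets the 2 dye orientations against each other. For a changed gene, the other sign when unturned thus shows only that its difference was larger in size with LPS in Cy3. Why the orientations differed in size was not tested. Named genes with the other sign when unturned, with their differences, were Actg2 1.45, Acyp2 -1.98, Adgre5 -0.98, Ahsg -1.29, Aldoa 0.32, Arg1 0.57, Blk -0.55, Casp4 0.22, Cdc25a -0.022, Cldn5 0.68, Cmpk2 0.26, Ctsl -0.11, Cxcl1 0.42, Cxcl2 0.015, Dnajc3 -0.32, Eif3f -0.22, Eno3 -0.12, Fabp5 -0.24, Fbxo9 -2.52, Gbp8 0.20, Gch1 0.43, Hif1a 0.089, Ifi203 0.37, Ifit2 0.061, Kdr -0.19, Kif11 -0.67, Klf4 -0.24, Lama4 0.14, Ldha 0.41, Mcm4 -0.31, Mrpl42 -0.88, Mrpl9 0.39, Mrps22 -0.69, Mtmr3 0.59, Mx2 0.39, Myct1 -0.50, N4bp3 -0.99, Ndufa11 -0.64, Ndufa2 -0.076, Ndufb5 -0.0066, Nrp1 -0.022, Psme4 -0.42, Rela 0.29, Rps14 1.11, Rps18 0.48, Rps23 -0.17, Ryr2 0.078, Sgk1 -0.037, Tlr2 0.40, Tmub1 0.15, Tsc22d3 -0.37 and Ttc7 1.29. Ctsl was -0.063 with scaling and Ryr2 0.12 with adjacent spots within 1. Table values hold no signal over background, so what depth limits is unknown.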

Other observations

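Gene families were counted after values were seen and without any test. Of 15 tubulin genes, Tubb2a and Tubb2b rose and Tuba1a, Tuba3b and Tubb6 fell, a changed share of 33.3% against 5.52% over all genes. Tubulins form microtubules, and near-identical members may share signal on long oligonucleotides. Of 70 odorant receptor genes, 1 rose and 5 fell (8.57%), and of 191 solute carriers, 4 rose and 6 fell (5.24%). Slc25a4, the heart form of the mitochondrial ADP/ATP carrier, was among the solute carriers that rose. Of 110 zinc finger proteins of the Zfp series, 1 rose and 2 fell (2.73%). Of 29 forkhead genes, 2 fell and none rose (6.90%, against 5.52% of all genes). They were Foxa1 and Foxo1, the latter a target of insulin signalling in endothelium.

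Oligonucleotides with no single gene symbol were not in any comparison above. Of 4003 such oligonucleotides, 205 met the strict rule (5.12%), 60 higher and 145 lower at 24 h. Of 12172 with a symbol, 709 did (5.82%), 327 higher and 382 lower.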
